A study of Arabidopsis thaliana with 12 samples.

Results

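Abscisic acid (ABA) is a plant hormone of drought, salt and seed dormancy, and its level in a cell depends on how fast it is made and how fast it is broken down. Cleavage of a carotenoid by 9-cis-epoxycarotenoid dioxygenase, for which NCED3 is the main gene of stressed vegetative tissue, limits synthesis, and the 8′-hydroxylases of the CYP707A family start the main route of breakdown. Downstream, PYR/PYL/RCAR receptors that have bound ABA inhibit type 2C protein phosphatases (PP2Cs) of clade A, which frees SnRK2 kinases from dephosphorylation. ABA itself commonly raises transcripts of the CYP707A genes and of clade A PP2Cs, as a negative feedback.

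The 10 genes described here were taken by their identifiers from the 23106 genes of the 3 deposited tables. All 10 were found: NCED3 (AT3G14440), the 4 hydroxylase genes CYP707A1 (AT4G19230), CYP707A2 (AT2G29090), CYP707A3 (AT5G45340) and CYP707A4 (AT3G19270), and the 5 PP2C genes ABI1 (AT4G26080), ABI2 (AT5G57050), HAB1 (AT1G72770), PP2CA (AT3G11410) and HAI1 (AT5G59220). Their transcripts were measured in Arabidopsis thaliana roots by RNA-seq of poly-A RNA in 12 libraries, 3 for each of 4 groups. Seedlings homozygous for the T-DNA insertion of the line cork1-2 (HO) received cellotriose (CT) or water, and segregated wild-type seedlings (SWT) received CT or water. CT is a chain of β-1,4-linked glucose units that can be released from cellulose, and CORK1 (AT1G56145), the gene that carries the insertion, encodes a receptor kinase with leucine-rich repeats and a malectin domain. SWT and HO seedlings in all groups descend from a cross of this single insertion line to a wild type that carries the calcium reporter aequorin. Seedlings had grown for 10 days and then for 1 day on a second medium, treatment with 1 mL of water or 10 µM CT lasted 1 h, and each library pooled the roots of 16 seedlings. The labels do not say whether libraries of a group came from separate plantings, so p-values measure the spread between these libraries, which may be technical.

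No values per library were used here, because the tables hold for each gene only the mean normalized read count (counts scaled to a common library size) and, for each comparison, a log2 fold change, its standard error (SE) and a Wald p-value. Depth per library is unknown from them. The group means and the replicate SD given for each gene were recovered from those numbers, with n = 3 per group. The SD uses the same dispersion for all groups of a gene, so no group has an SD measured from its own libraries. A single deviating library therefore cannot be seen, and whether the libraries of 2 groups overlap cannot be told. The transcript of CORK1 had a mean of 302 in HO with CT, 255 in HO with water, 1999 in SWT with CT and 1413 in SWT with water, so that HO held 18.1% of the SWT level in water (log2 fold change −2.47, SE 0.16, Benjamini-Hochberg adjusted p = 2.93e-52, DESeq2). All 8 root marker genes were detected, with means of 175 to 4213, and 0 of 8 passed an adjusted p of 0.05 in any comparison. The 8 photosynthetic genes that mark shoot tissue were detected too, with means of 9.73 to 1711, and their summed level was 5053 in HO with CT, 5261 in HO with water, 3280.2 in SWT with CT and 4637 in SWT with water. With CT against water in SWT 2 of these 8 fell at an adjusted p under 0.05, beside 3.23% of all genes. Their median log2 fold change there was −0.55, beside −0.01 over all genes. For HO versus SWT with CT 4 of 8 were higher in HO, beside 4.28% of all genes. Their part in the results was not tested. In such bulk samples, fewer cells of a type and less RNA per cell cannot be told apart.

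Reads of the 10 genes could be assigned to their loci with few doubts. In no member did any 75-base stretch of its annotated exons occur elsewhere in the genome, and 9 of 10 overlapped no other gene. The exception was ABI1, at chr4:13219915-13222376 on the minus strand, which overlaps AT4G26070 on the other strand. No source used here says whether reads were counted by strand, and the ABI1 count is uncertain for that reason. CYP707A3 lies at chr5:18368532-18371021 on the minus strand (5 annotated exon blocks, build TAIR10.1), CYP707A1 at chr4:10521259-10523961 on the plus strand (7 exon blocks) and PP2CA at chr3:3583782-3585850 on the minus strand (4 exon blocks). The counts cover whole genes and do not separate exons or UTRs.

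The 250 bases upstream of these 3 genes are shown because CYP707A3 and PP2CA were the members that passed the test with CT in SWT. Neither passed in HO, and the fall of PP2CA in SWT was small (0.804 times the level in water, adjusted p = 0.0342 by DESeq2). CYP707A1 was the hydroxylase gene next in level, and its transcript did not pass the test. Sequence is from the RefSeq genome (TAIR10.1), read 5′ to 3′ toward the gene. The windows are chr5:18371022-18371271 (minus strand) for CYP707A3, chr4:10521009-10521258 (plus strand) for CYP707A1 and chr3:3585851-3586100 (minus strand) for PP2CA, and no annotated gene lies in them. Capitals mark ACGTG, the core of the ABA-responsive element, and TTGAC, the core of the W-box that WRKY factors bind, on either strand (CACGT and GTCAA on the other strand).
CYP707A3 upstream window: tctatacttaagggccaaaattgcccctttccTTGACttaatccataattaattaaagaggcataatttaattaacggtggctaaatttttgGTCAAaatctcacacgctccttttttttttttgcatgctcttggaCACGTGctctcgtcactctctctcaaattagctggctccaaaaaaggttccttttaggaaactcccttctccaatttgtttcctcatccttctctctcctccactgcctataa
CYP707A1 upstream window: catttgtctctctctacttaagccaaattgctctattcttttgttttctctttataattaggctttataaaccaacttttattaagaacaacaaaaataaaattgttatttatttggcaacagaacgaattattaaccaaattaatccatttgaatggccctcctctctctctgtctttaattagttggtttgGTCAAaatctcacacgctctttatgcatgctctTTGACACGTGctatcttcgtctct
PP2CA upstream window: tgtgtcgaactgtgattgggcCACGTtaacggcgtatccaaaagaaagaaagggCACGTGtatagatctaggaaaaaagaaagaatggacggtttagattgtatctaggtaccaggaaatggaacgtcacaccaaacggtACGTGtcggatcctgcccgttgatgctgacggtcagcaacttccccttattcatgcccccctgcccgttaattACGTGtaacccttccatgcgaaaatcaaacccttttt

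The windows of the hydroxylase genes CYP707A3 and CYP707A1 each held 1 G-box (CACGTG, a palindrome that counts as 2 matches of the ABA-responsive core) and 2 matches of the W-box core. They also shared the run tttggtcaaaatctcacacgctc of 23 bases, which begins 162 bases before the annotated start of CYP707A3 and 61 bases before that of CYP707A1. The run was picked as the longest that these 2 windows share, so both hold it by construction. No other of the 27443 upstream windows of protein-coding genes held it. The window of PP2CA held 5 matches of the ABA-responsive core, of which 2 belong to 1 G-box, and none of the W-box core. On either strand, the ABA-responsive core occurred in 5 of the 10 members' windows and in 22.9% of all 27443, the G-box in 3 of 10 and in 6.49%, and the W-box core in 5 of 10 and in 44.9%. A match is a description of the letters, not a binding site, and a part of these matches in the transcript levels was not tested.

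The members covered a wide range of levels. Per kilobase of exon, the mean normalized count over all 12 libraries was 1254 ± 163 for ABI1, 784 ± 146 for CYP707A3, 643 ± 58.7 for PP2CA, 435 ± 76.7 for CYP707A1, 229 ± 27.6 for HAB1, 71.0 ± 14.4 for ABI2, 39.4 ± 15.9 for HAI1, 13.8 ± 6.15 for NCED3, 2.23 ± 2.04 for CYP707A2 and 1.69 ± 2.3 for CYP707A4 (± replicate SD from the fit, n = 3 per group). Of neighbours in this order, CYP707A3 and PP2CA, and CYP707A2 and CYP707A4, differed by less than their joint SD. The order pools groups that differ: PP2CA was above CYP707A3 in HO with CT (628 against 562), in HO with water (694 against 462) and in SWT with water (693 against 639), and below it in SWT with CT (557 against 1473). ABI1 stood at the 93.3 percentile of mean count among all genes and CYP707A3 at the 87.1, whereas CYP707A4 stood at the 6.71.

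The spread between replicates set what could be seen for each gene. The replicate coefficient of variation was 9.13% for PP2CA, 12.1% for HAB1, 13.0% for ABI1, 17.6% for CYP707A1, 18.7% for CYP707A3 and 20.3% for ABI2. It was 40.3% for HAI1 and 44.7% for NCED3, against a median of 23.8% and 33.0% for genes of like mean (within a factor of 1.5), which placed these stress-responsive genes at the 95.7 and 90.6 percentile of their peers. PP2CA, at the 16.3 percentile, was less variable than most genes of its level. CYP707A2 and CYP707A4 averaged 5.21 and 2.95 normalized counts per library, with a coefficient of variation of 91.5% and 136%. For 8 of the 10 genes the 95% interval of the SWT response reached less than 2.51-fold to each side of the estimate, which is the fold criterion of the study. A change of that size in CYP707A2 or CYP707A4 was not detectable at these counts. The intervals are not adjusted for the number of genes tested, so for the other 8 they do not show that such a change would pass.

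**Figure D1:**
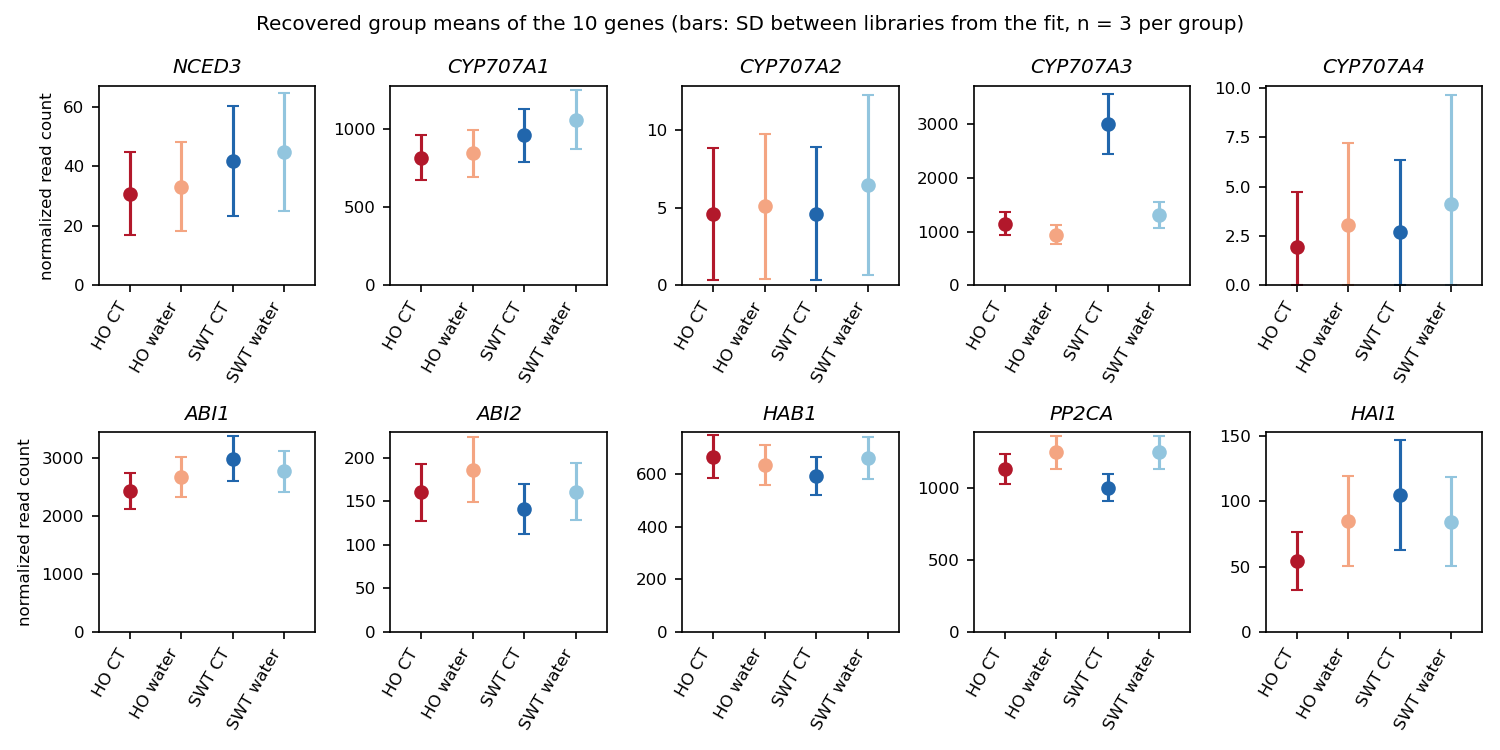
Recovered group means (normalized read count per library, linear axis from 0) of the 10 genes in HO with CT, HO with water, SWT with CT and SWT with water. Points are means and bars the replicate SD from the fit (n = 3 per group). CYP707A3 in SWT with CT, at 3008, is the 1 mean whose bar lies clear of the bars of the other groups of the same gene.

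The first comparison asked whether CT changed these transcripts in HO and in SWT roots. CYP707A3, which encodes an ABA 8′-hydroxylase, was the member that rose. Its mean was 1148 ± 215 in HO with CT and 943 ± 177 in HO with water. In SWT it was 3008 ± 559 with CT and 1305 ± 244 with water (replicate SD from the fit, n = 3 per group). The SWT mean with CT stood above the other 3 by more than the replicate SD, and the HO means differed by about 1 SD. In HO the level with CT was 1.22 times that with water (95% interval 0.902 to 1.64, log2 fold change 0.28, SE 0.22, unadjusted p = 0.199, adjusted p = 1.000 by DESeq2). In SWT it was 2.3 times that with water (95% interval 1.71 to 3.11, log2 fold change 1.2, SE 0.22, adjusted p = 1.58e-06 by DESeq2), which passed the test and stayed below the fold criterion. When the Wald statistics were divided by their robust spread over all genes, which was 1.45 in SWT, the adjusted p of this response was 0.00611. All genes enter that spread, also the 11.5% of tested genes that passed in SWT. How much of it is noise and how much is response to CT was not tested. A gene that does not pass with scaled statistics is therefore not shown to lack a response.

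The responses of CYP707A3 in the 2 genotypes were then compared with each other. The response in SWT exceeded that in HO by 0.92 on the log2 scale (SE 0.31, 95% interval 0.31 to 1.53, z test, unadjusted p = 0.00314). After Benjamini-Hochberg adjustment over all 23103 genes with a p-value the p was 0.0709, which missed the threshold, and over the alternative settings it ranged from 0.0573 to 1.00. A rise in SWT that differs from that in HO was therefore not established for CYP707A3 at this adjustment.

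Among the 4 hydroxylase genes, nearly all transcript came from CYP707A3 and CYP707A1. Per kilobase of exon, CYP707A3 made up 59.1% of the summed level of the 4 genes in HO with CT, 53.4% in HO with water, 76.3% in SWT with CT and 55.8% in SWT with water. The summed level itself was 951 in HO with CT, 865 in HO with water, 1930.2 in SWT with CT and 1145 in SWT with water. The ratio of CYP707A3 to CYP707A1 was thus 1.46 in HO with CT, 1.16 in HO with water, 3.25 in SWT with CT and 1.28 in SWT with water. In SWT with CT the level of CYP707A3 per kilobase was 1473 ± 274, beside 1381 ± 179.6 for ABI1, and the difference between these genes lay within the SD.

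CYP707A1, the other hydroxylase gene well expressed in these roots, did not pass the test. Its mean was 816 ± 144 in HO with CT, 844 ± 149 in HO with water, 959 ± 169 in SWT with CT and 1059 ± 186 in SWT with water. The log2 fold change with CT was −0.05 in HO (95% interval −0.46 to 0.36) and −0.14 in SWT (−0.55 to 0.26), so in neither genotype did the interval reach the rise seen for CYP707A3 in SWT. CYP707A2, best known for ABA breakdown in seeds, had means of 4.61 in HO with CT, 5.11 in HO with water, 4.62 in SWT with CT and 6.48 in SWT with water. CYP707A4 had 1.94, 3.07, 2.68 and 4.13 normalized counts in the same 4 groups. Both were close to the limit of detection in roots, and their intervals with CT, −2.28 to 1.98 in HO and −2.59 to 1.61 in SWT for CYP707A2, and −3.87 to 2.55 in HO and −3.74 to 2.50 in SWT for CYP707A4, leave changes of several fold in either direction undecided.

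NCED3, the gene of the limiting step of synthesis, was weakly expressed. Its mean was 30.7 ± 13.9 in HO with CT, 33.1 ± 14.9 in HO with water, 41.7 ± 18.5 in SWT with CT and 44.7 ± 19.8 in SWT with water. The 4 means differed by less than the SD in SWT with water. The log2 fold change with CT was −0.11 in HO (95% interval −1.16 to 0.93) and −0.10 in SWT (−1.12 to 0.93), and the difference of the responses was 0.01 (−1.45 to 1.48). A change within these bounds was not detectable with this count and spread between replicates.

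PP2CA, a clade A phosphatase that represses ABA signalling, was the 1 phosphatase gene that passed the test. Its mean was 1130.2 ± 103 in HO with CT, 1249 ± 114 in HO with water, 1003 ± 92.3 in SWT with CT and 1248 ± 113 in SWT with water. The water means of HO and SWT were nearly equal, and the CT means lay below them in each genotype. In HO the level with CT was lower by a log2 fold change of −0.14 (95% interval −0.35 to 0.07, unadjusted p = 0.180, adjusted p = 1.000 by DESeq2). In SWT it fell to 0.804 times the level in water (95% interval 0.695 to 0.931, log2 fold change −0.31, SE 0.11, adjusted p = 0.0342 by DESeq2). With the Wald statistics scaled by that same spread PP2CA did not pass (adjusted p = 0.452). The responses differed by −0.17 (SWT minus HO, 95% interval −0.47 to 0.13, adjusted p = 0.792, z test with Benjamini-Hochberg adjustment), so the data do not show that the responses of PP2CA differed between the genotypes.

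The other 4 phosphatase genes did not pass in either genotype. ABI1, the member of highest level per kilobase over all groups together, had a mean of 2432 ± 317 in HO with CT, 2679 ± 349 in HO with water, 2994 ± 389 in SWT with CT and 2774 ± 361 in SWT with water. HAB1, a close relative of ABI1 and ABI2, had 667 ± 80.3 in HO with CT, 636 ± 76.8 in HO with water, 592 ± 71.8 in SWT with CT and 661 ± 79.7 in SWT with water. For ABI1 and HAB1 the 95% intervals of the responses lay between −0.44 and 0.41 on the log2 scale in each genotype. ABI2 had 160.0 ± 32.5 in HO with CT, 186 ± 37.3 in HO with water, 141 ± 29.0 in SWT with CT and 161 ± 32.8 in SWT with water, and its log2 fold change with CT was −0.21 in HO (95% interval −0.68 to 0.25) and −0.19 in SWT (−0.66 to 0.28).

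HAI1, a phosphatase gene known for strong induction by ABA and low water potential, had estimates of opposite sign in the genotypes. Its mean was 54.0 ± 22.2 in HO with CT, 85.1 ± 34.3 in HO with water, 105 ± 42.1 in SWT with CT and 84.4 ± 34.0 in SWT with water. The means in water were about equal, and the mean with CT was the lowest in HO and the highest in SWT. The log2 fold change was −0.66 in HO (SE 0.48, unadjusted p = 0.171, DESeq2) and 0.32 in SWT (SE 0.47, adjusted p = 0.777 by DESeq2). The difference of the responses, 0.97 (SWT minus HO, 95% interval −0.35 to 2.29), did not pass (adjusted p = 0.673, z test with Benjamini-Hochberg adjustment).

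Counted over the list, in HO 0 of the 10 members passed, where 2 genes in all passed and met the fold criterion (0.00866% of 23103 tested). In HO 0 members had an unadjusted p under 0.05 (DESeq2), where 1.85% of all genes had one. In SWT 1 member was higher with CT at an adjusted p under 0.05, where 8.30% of the 21759 genes tested were higher, and 1 member was lower, where 3.23% of all genes were. None of the 10 met the fold criterion as well, which 2.83% of genes did, and 2 of the 10 had an unadjusted p under 0.05, as did 20.8% of all genes. The median log2 fold change of the 10 members was −0.14 in HO and −0.15 in SWT, beside −0.01 over all genes in each genotype. The difference of the responses was passed by 0 of 10 members and by 3.95% of all genes. In that z test 1 member, CYP707A3, had an unadjusted p under 0.05, as did 11.9% of all genes. With 10 genes, counts of 0 or 1 stood close to the background, and CYP707A3 carried the largest estimate with a passed test.

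**Figure D2:**
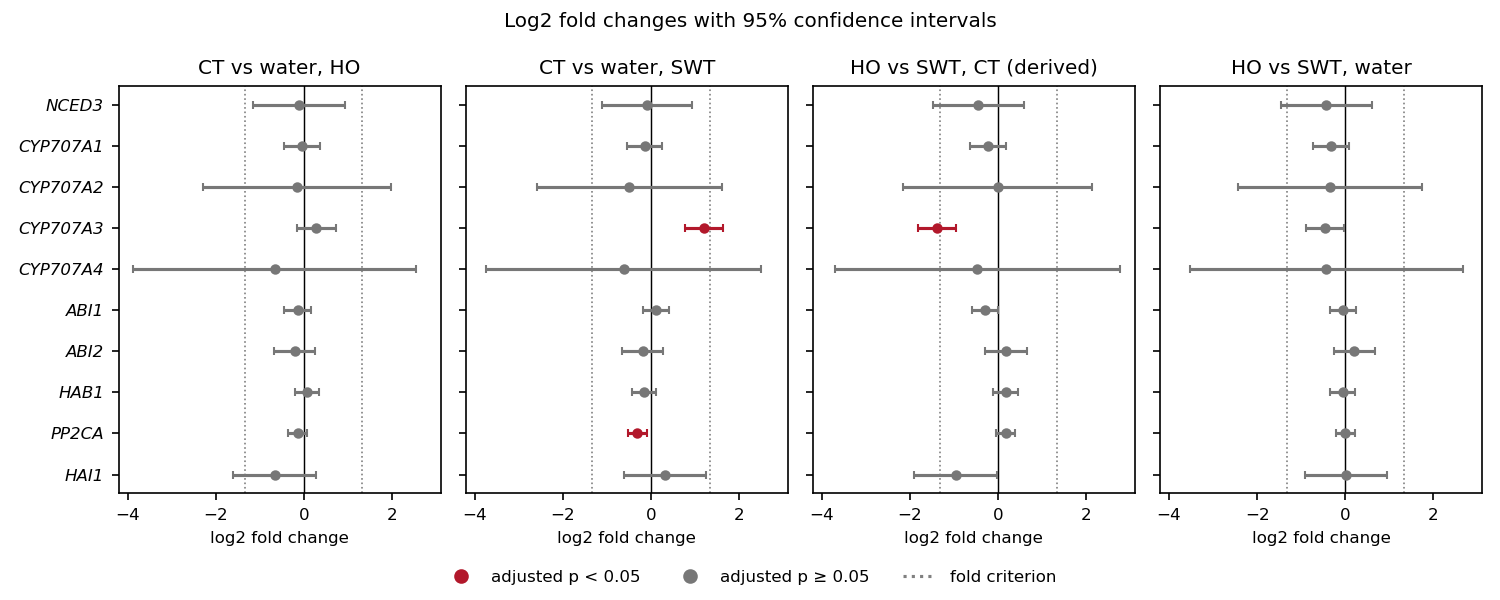
Log2 fold changes (points) with 95% confidence intervals (bars) of the 10 genes for CT versus water in HO and in SWT and for HO versus SWT with CT and in water. Dotted lines mark the fold criterion (2.51-fold) and red marks an adjusted p under 0.05. CYP707A3 is red in SWT (1.2) and for HO versus SWT with CT (−1.39), PP2CA is red in SWT (−0.31), and the intervals of CYP707A2 and CYP707A4 span the criterion on each side of 0.

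The second comparison set HO against SWT. In water, 0 of 10 members passed (DESeq2), where 44 genes passed (0.190%) and 30 also met the fold criterion (0.130%). The level of CYP707A3 in HO was 72.2% of that in SWT, with a log2 fold change of −0.47 (95% interval −0.90 to −0.04, unadjusted p = 0.0335, adjusted p = 1.000 by DESeq2). CYP707A3 was the 1 member with an unadjusted p under 0.05, where 4.71% of all genes had one. The 5 phosphatase genes had estimates from −0.06 to 0.20 in water. That of PP2CA was 0.00 (95% interval −0.21 to 0.21), and those of the 4 hydroxylase genes ran from −0.47 to −0.33. The 95% intervals were −0.73 to 0.08 for CYP707A1, −2.43 to 1.75 for CYP707A2 and −3.53 to 2.67 for CYP707A4, and each included 0. CYP707A2 and CYP707A4 were close to the limit of detection. The median over the 10 members, CYP707A2 and CYP707A4 included, was −0.19, beside 0.00 over all genes.

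With CT, CYP707A3 was lower in HO than in SWT. This comparison was derived from the 3 tables, and it shares the CT libraries with the responses described above, so it is not a separate line of evidence. CYP707A3 in HO with CT was at 38.2% of its level in SWT with CT (log2 fold change −1.39, SE 0.22, 95% interval −1.82 to −0.96, adjusted p = 1.29e-08, z test with Benjamini-Hochberg adjustment). The shoot markers moved the other way, with a median log2 fold change of 0.63. In HO with CT 4 of these 8 were higher, beside 4.28% of all genes, and their part in this result was not tested. The estimate of −1.39 for CYP707A3 includes the difference already present in water (−0.47), which did not pass. The rest is the difference of the responses (0.92, SWT minus HO). That did not pass either (adjusted p = 0.0709, z test with Benjamini-Hochberg adjustment), so −1.39 does not measure the response to CT alone. CYP707A3 met the fold criterion and was the 1 member called lower, where 2.99% of 23103 genes were. It was also the 1 member that passed without that criterion, where 9.00% of genes were lower and 4.28% higher. Tested against the fold criterion itself, CYP707A3 did not pass (adjusted p = 1.00). HAI1 in HO with CT had an estimate of −0.96 (95% interval −1.90 to −0.02, unadjusted p = 0.0443, adjusted p = 0.201, z test) and did not pass, and the same held for ABI1, with an estimate of −0.30 and an unadjusted p of 0.0504. The median over the 10 members, CYP707A2 and CYP707A4 included, was −0.27, beside 0.00 over all genes.

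The rest of the ABA pathway was read from lists of 62 further genes, of which 57 were in the tables. The share that passed in SWT was near that of all genes, and none met the fold criterion. In HO 0 of 57 passed and 1 had an unadjusted p under 0.05 (DESeq2), beside 1.85% of all genes. In SWT 54 of the 57 had an adjusted p. Of these 54, 3 were higher with CT, beside 8.30% of all genes tested, and 3 were lower, beside 3.23%. An unadjusted p under 0.05 was found for 11 of the 57 (19.3%), beside 20.8% of all genes. Of all genes with an adjusted p in SWT, 11.5% passed in either direction. By list and among genes with an adjusted p, 1 of 8 other synthesis genes and 1 of 6 genes of conjugation, release and transport passed. The same held for 1 of 11 receptor genes, 0 of 4 other clade A phosphatase genes, 1 of 3 ABA-activated SnRK2 genes and 2 of 5 transcription factor genes. Of 18 ABA-responsive target genes 17 had an adjusted p in SWT, and 0 of these passed. Among the 18, 0 had an unadjusted p under 0.05, and the median log2 fold change was −0.07, beside −0.01 over all genes.

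Of the genes that rose in SWT, UGT71C5 (AT1G07240), which conjugates ABA to glucose, averaged 1061 in HO with CT, 938 in HO with water, 2009.9 in SWT with CT and 1076 in SWT with water. Its log2 fold change with CT was 0.18 in HO (SE 0.18) and 0.90 in SWT (SE 0.18, adjusted p = 1.96e-05 by DESeq2). Of the pathway genes that passed in SWT, UGT71C5 and CYP707A3 also passed with the scaled statistics (adjusted p = 0.0187 for UGT71C5). PYL4 (AT2G38310), an ABA receptor gene, averaged 5199 in HO with CT, 4904 in HO with water, 7451 in SWT with CT and 4744 in SWT with water (log2 fold change in SWT 0.65, SE 0.17, adjusted p = 0.00232 by DESeq2). ABI5 (AT2G36270), a bZIP transcription factor gene of seeds and seedlings, had a summed count over the 3 libraries of 150.1 in HO with CT, 173 in HO with water, 342 in SWT with CT and 183 in SWT with water (log2 fold change in HO −0.21, SE 0.27, log2 fold change in SWT 0.90, SE 0.25, adjusted p = 0.00550 by DESeq2). With the scaled statistics the adjusted p was 0.149 for PYL4 and 0.215 for ABI5, and neither passed.

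Of the genes that fell in SWT, ABA1 (AT5G67030), which encodes zeaxanthin epoxidase of an early step of synthesis, averaged 933 in HO with CT, 916 in HO with water, 552 in SWT with CT and 930.1 in SWT with water (log2 fold change in SWT −0.75, SE 0.23, adjusted p = 0.0145 by DESeq2). SNRK2.6 (AT4G33950), also known as OST1, the kinase of ABA-induced stomatal closure, averaged 421 in HO with CT, 335 in HO with water, 286 in SWT with CT and 413 in SWT with water. Its log2 fold change was 0.33 in HO (SE 0.16, unadjusted p = 0.039, DESeq2) and −0.53 in SWT (SE 0.16, adjusted p = 0.0120 by DESeq2). ABF3 (AT4G34000), a bZIP factor of the ABA response, averaged 1876, 1901, 1391 and 1924 in the same 4 groups (log2 fold change in SWT −0.47, SE 0.14, adjusted p = 0.0115 by DESeq2), and its count is uncertain because it overlaps AT4G34020 on the other strand. None of the 3 falls held with the scaled statistics, where the adjusted p was 0.321 for ABA1, 0.299 for SNRK2.6 and 0.294 for ABF3. The summed shoot markers, lower in SWT with CT than in SWT with water, moved in the same direction as these 3 genes and PP2CA, and their part in the falls was not tested.

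In the test of the difference of the responses, SNRK2.6 was the 1 of the 57 genes that passed (−0.86, SWT minus HO, SE 0.23, adjusted p = 0.00641, z test with Benjamini-Hochberg adjustment), beside 3.95% of all genes. For UGT71C5 that difference was 0.72 (adjusted p = 0.0973), and for ABI5 it was 1.11 (adjusted p = 0.0650). In water 0 of 57 passed between HO and SWT, with 2 at an unadjusted p under 0.05 (DESeq2), beside 4.71% of all genes. With CT, 3 of 57 were higher in HO than in SWT, beside 4.28% of all genes, and 3 were lower, beside 9.00% (z test). The CT-treated SWT libraries enter that comparison and the SWT response alike.

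**Figure D3:**
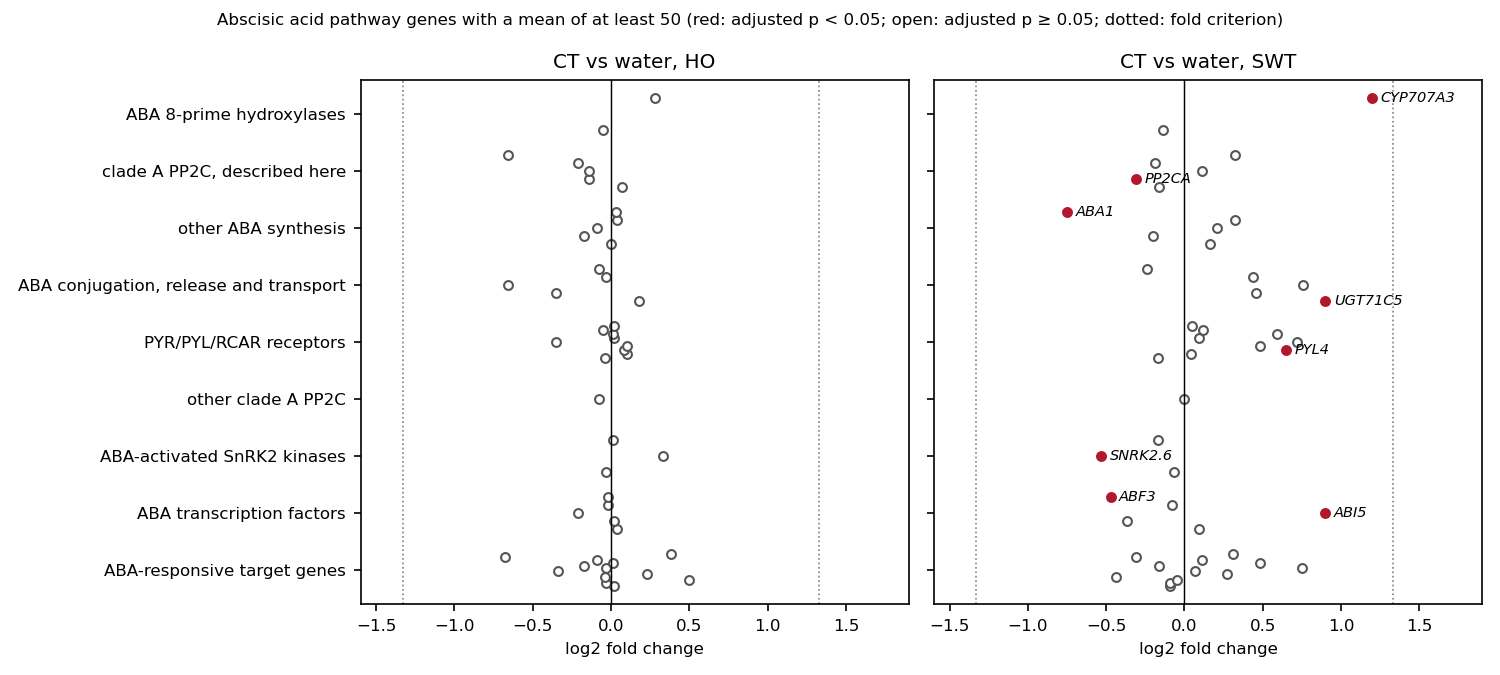
Log2 fold change with CT in HO and in SWT of the ABA pathway genes with a mean of at least 50 normalized counts, 47 genes in all, by list (each point is a gene, red marks an adjusted p under 0.05). In HO no point is red and all lie between −0.68 and 0.50, while in SWT they lie between −0.75 and 1.2, and CYP707A3 is the highest.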

How the data were processed

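Poly-A RNA of 12 root libraries was sequenced as paired reads. The authors aligned them to TAIR10 with STAR 2.7.10a, counted reads per gene with featureCounts 2.0.1 and fitted all libraries with DESeq2 1.34.0. They deposited 3 tables of 23106 genes. The signal in the deposited tables is the mean normalized read count over libraries, the authors' log2 fold change and log2 SE belong to each comparison, the deposited score is the Wald statistic, and the p-value of the authors comes with a Benjamini-Hochberg adjusted p-value. The tables hold no values per library, so no count model was fitted and the authors' Wald test was the main test. A count of 0 columns had no match to a sample or comparison. Genes without a p-value numbered 3, and a further 1344 lacked an adjusted p in the SWT table.

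Passed means an adjusted p below 0.05, and called means in addition a change of at least 2.51-fold in either direction, as in the study. Group means and the replicate SD were recovered from the mean count, the fold changes and the SEs, with the same dispersion for all groups of a gene. Only the deposited signs of the fold changes gave nearly 1 dispersion per gene from all tables (spread 8.94e-05 at the 90th percentile, against 0.00117 to 0.00295 with other signs). The difference of the CT responses is a two-sided z test between comparisons without a common library. To compare HO with SWT under CT, the SWT response was subtracted from the sum of the HO response and the difference in water, and the variance of the water difference was subtracted from the summed variances of the responses. Benjamini-Hochberg adjustment ran over all 23103 genes with a p-value. Alternatives changed the threshold, the fold criterion, the null hypothesis, the scale of the statistics, the genes adjusted over and a mean of at least 50. Loci, exon lengths and upstream sequence are from the RefSeq annotation and genome TAIR10.1. Python 3.11.15, numpy 2.4.6, scipy 1.17.1, pandas 2.3.3 and matplotlib 3.10.9 were used.

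Named genes were the 10 members, each gene of the other ABA lists that passed in SWT or in the difference of the responses, and CORK1. Members and lists were chosen with earlier results of these data known.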

Additional observations from a re-analysis of the deposited data

Results flagged for a closer look

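The response of SNRK2.6 (AT4G33950) to CT differed between the genotypes in a test of the difference itself. Its log2 fold change was 0.33 in HO and −0.53 in SWT, a difference of −0.86 (SWT minus HO, SE 0.23, adjusted p = 0.00641, z test with Benjamini-Hochberg adjustment over all genes). The difference also passed with statistics scaled by their spread over all genes (adjusted p = 0.0341). It did not pass when it had to reach the fold criterion of the study, and over all settings the adjusted p ranged from 0.00498 to 1.00. Taken alone, the HO response did not pass, and the SWT response did not pass with scaled Wald statistics (adjusted p = 0.299). The water means, which enter the difference, were 335 in HO and 413 in SWT (log2 fold change −0.30, unadjusted p = 0.0581, DESeq2). The mean in HO with CT was 421.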

How the results depend on the processing

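Without the fold criterion 2 members, CYP707A3 and PP2CA, counted as called in SWT in place of 0, and in a test against the fold criterion itself 0 members in place of 1 were called for HO versus SWT with CT. The other alternatives left the number of members called as it was in the 5 comparisons. For single genes each alternative changed only the adjusted p or the criterion and left the fold change as it was, so a direction could not change. Of 369 alternatives for 80 values of single genes, 334 stayed on the same side of the threshold, 35 no longer passed, and 0 newly passed. Most of the 80 values had not passed in the main setting. Several alternatives were only stricter than it and could not make a gene newly pass. Among the 10 members 220 were kept and 5 no longer passed, those of CYP707A3 in SWT and for HO versus SWT with CT against the fold criterion (adjusted p = 1.00), and those of PP2CA in SWT at a threshold of 0.01 (adjusted p = 0.0342), against the fold criterion (1.00) and with the statistics divided by their spread (0.452).

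Over all genes the number called in SWT was 615, with 2508 without the fold criterion and 139 tested against it. In HO it was 2, with 0 at an adjusted p below 0.01, 0 against the fold criterion and 32 with the spread, which was 0.772, divided out. In water it was 30, with 18 below 0.01 and 4 against the fold criterion. The difference of the responses was passed by 913 genes, by 357 at or above the fold criterion, 578 below 0.01, 33 against the criterion and 586 with the spread divided out. For HO versus SWT with CT 745 were called, with 3068 without the fold criterion, 181 against it and 457 with the spread divided out. No paired analysis was possible because the tables hold no values per library, and for the same reason leaving out replicates was not run. Depth limits what can be said of CYP707A2 and CYP707A4.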
